A study of Mus musculus with 12 samples.

Results

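Nuclear-retained long noncoding RNAs were followed in the livers of 12 mice. They are 9 genes, namely Malat1, Neat1, Kcnq1ot1, Meg3, Rian, Mirg, Airn, Tug1 and Pvt1, taken from the count table by gene symbol and not by their values. The table held 56923 gene IDs, each of the 9 symbols matched exactly 1 of them, and all 9 were among the 16839 genes that passed the filter on low counts. The mice were wild-type C57BL/6J, 6 weeks old at the start, and all had carbon tetrachloride (CCl4), a liver toxin whose repeated use leads to fibrosis, injected into the peritoneum over 6 weeks, 2 times weekly (200 µL, 7.5% in olive oil). Control mice had CCl4 alone, and the other groups were also gavaged daily for 2 weeks with curcumin, the main polyphenol of turmeric, where low livers had 25, medium livers 50 and high livers 100 mg/kg, with 3 mice in each of the 4 groups. No liver without CCl4 was analysed here, and the labels do not say whether control mice were gavaged. Mice were kept 3 to a cage, and the labels do not say which mice shared one.

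Most messenger RNAs leave the nucleus for translation, whereas these transcripts are known for staying in it, at least in large part. Malat1 gathers in nuclear speckles, where splicing factors are stored. Neat1 is the scaffold on which paraspeckles are built. Kcnq1ot1 and Airn are made from the paternal chromosome only, run antisense to the protein-coding genes Kcnq1 and Igf2r, and silence genes around them. Meg3, Rian and Mirg are made from the maternal chromosome and lie in this order along the imprinted Dlk1-Dio3 region, in the same direction of transcription. Rian hosts small nucleolar RNAs and Mirg hosts microRNAs. Tug1 is found in nucleus and cytoplasm, and Pvt1 lies beside the oncogene Myc. Transcripts of the mitochondrial genome are made and kept in the mitochondria, outside the nucleus. Where a transcript lay in the cell was not measured, since RNA was taken from whole tissue.

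Malat1 and Neat1 stand apart from the rest by how they end, and these ends are shown because they bear on which library methods capture the RNA. Instead of a tail of added A residues, each has its 3′ end cut by RNase P, and 2 T-rich stretches (U-rich in the RNA) fold onto an encoded A-rich stretch as a triple helix. For Neat1 this holds for the long isoform. The ends below are from the GENCODE M21 transcripts, both on the minus strand of chromosome 19, with the T-rich and A-rich stretches in capitals. The Malat1 stretch covers bases 6601 to 6691 of a model of 6983 bases, and the Neat1 stretch covers the last bases, 20677 to 20771, of its model. The labels name total RNA and a Hieff library kit, and do not say whether RNA was selected by poly(A) tail or depleted of ribosomal RNA.
Malat1: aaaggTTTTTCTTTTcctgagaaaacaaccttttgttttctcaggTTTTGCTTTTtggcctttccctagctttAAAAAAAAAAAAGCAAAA
Neat1: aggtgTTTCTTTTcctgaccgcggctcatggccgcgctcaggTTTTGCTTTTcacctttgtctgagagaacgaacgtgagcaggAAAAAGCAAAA

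The starts of Kcnq1ot1, Meg3 and Rian are shown because the results below turn on these genes, the first moving with the mitochondrial share and the other pair coming apart. Each runs from 250 bases before to 50 bases after the RefSeq start (build GRCm38.p6), on the strand of the gene. Capitals mark 3 letter strings on either strand. Of the 32851 RefSeq start windows of the same length, 37.4% held CCAAT at least 1 time. The string TGACG was in 20.8% and the string TATAA in 24.9% of them. The Kcnq1ot1 start (chr7:143296498-143296797, minus strand) held 3 matches of CCAAT and 1 match of TGACG. Meg3 has 2 RefSeq starts, and start 1 is shown (chr12:109540746-109541045, plus strand). It held 1 match of CCAAT, a pair of overlapping TGACG matches and a pair of overlapping TATAA matches. A TATAA on the gene's strand began 25 bases before this start. Start 2 of Meg3 (chr12:109545148-109545447, plus strand) held 0 matches of each string. The Rian start (chr12:109603695-109603994, plus strand) held none of these 3 letter strings, which says nothing of the factors that may bind there. A RefSeq start was matched for 7 of the 9 genes.
Kcnq1ot1: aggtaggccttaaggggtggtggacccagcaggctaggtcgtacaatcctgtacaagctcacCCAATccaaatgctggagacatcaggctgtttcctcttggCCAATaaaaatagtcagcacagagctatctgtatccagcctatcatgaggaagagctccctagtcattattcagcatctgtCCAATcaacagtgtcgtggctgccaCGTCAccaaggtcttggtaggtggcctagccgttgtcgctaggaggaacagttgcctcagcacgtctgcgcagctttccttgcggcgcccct
Meg3: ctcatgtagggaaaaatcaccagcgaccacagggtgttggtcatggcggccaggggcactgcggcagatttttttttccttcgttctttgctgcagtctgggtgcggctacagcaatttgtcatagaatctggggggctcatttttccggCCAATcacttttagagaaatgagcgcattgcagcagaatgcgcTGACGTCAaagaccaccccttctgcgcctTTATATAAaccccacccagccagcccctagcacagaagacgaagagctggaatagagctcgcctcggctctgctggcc
Rian: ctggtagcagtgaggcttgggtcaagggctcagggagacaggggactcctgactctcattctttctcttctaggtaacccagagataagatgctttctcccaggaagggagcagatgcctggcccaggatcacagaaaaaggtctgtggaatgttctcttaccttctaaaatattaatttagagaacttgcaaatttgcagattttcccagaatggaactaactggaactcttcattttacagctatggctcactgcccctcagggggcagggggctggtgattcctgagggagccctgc

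Library totals ran from 36015134 to 70376474 counts, and 3 counts, the number taken as the detection floor, correspond to 0.0426 to 0.0833 CPM (counts per 1000000). The 37 mitochondrial genes took 30.3% (high replicate 1) to 64.7% (high replicate 2) of the counts of a library, and 11 nuclear genes of near-identical sequence took another part, so that 5180318 to 36377767 counts were left for the rest of the nuclear genome. The share averaged 56.9% ± 12.1 in low, 54.7% ± 6.01 in medium and 45.7% ± 17.5 in high livers, against 61.2% ± 2.81 in control livers (SD, n = 3 each). The liver label was checked against markers. All 12 hepatocyte markers were detected and albumin mRNA alone took 1.35% (low replicate 2) to 10.1% (high replicate 1) of the remaining nuclear counts. Together the 9 genes made up 0.0509% (high replicate 1) to 0.455% (medium replicate 2) of those nuclear counts.

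Compared per length of gene model (exon length in GENCODE M21) on the TMM scale (edgeR's trimmed mean of M-values, which sets the middle of all tested genes level between libraries), Malat1 and Neat1 were the most abundant. Their median levels over the 12 libraries were 15.1 and 12.4 CPM per kb. Meg3 followed at 4.75 CPM per kb, Tug1 at 3.10, Rian at 1.35 and Mirg at 0.603. Airn, at 0.182 CPM per kb, Pvt1, at 0.102, and Kcnq1ot1, at 0.0325, came last. Kcnq1ot1 owes its place to a gene model of 93092 bases, over which its 89 to 329 counts are spread, while Airn was set against a model of only 3597 bases. Neat1 was set against a model of 20771 bases and Malat1 against 6983. By counts Neat1 was above Malat1 in every library except high replicate 1, so their order per kb depends on these lengths. The higher of each neighbouring pair led in 12 of 12 libraries, except that Malat1 led Neat1, and Airn led Pvt1, in only 9 of 12. The ranges over libraries overlapped for every neighbouring pair, so that the order holds within a library more firmly than between libraries.

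Depth differed widely between the genes. Airn had 7 to 59 counts and Pvt1 10 to 115 counts in a library, so their values carry a large counting error, while Malat1 had at least 2350 and Neat1 at least 5024 counts. Strand-aware counting is not stated, so reads of Kcnq1ot1 and Airn cannot be told apart from those of the genes they overlap. Kcnq1 itself had 3 to 18 counts (median 14), far below Kcnq1ot1, whereas Igf2r had 173 to 958 counts, above Airn in all libraries. Rtl1, the antisense partner within the Meg3 region, had 0 counts in each library.

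On the TMM scale, livers of mice given 25 mg/kg curcumin (low) had less Malat1, Mirg and Pvt1 in every library than any control liver, but no difference passed the test. Malat1 had 91.7, 88.5 and 92.0 CPM in low livers, against 103.6, 120.1 and 150.2 CPM in control livers. Its log2 difference was -0.46 ± 0.32 (SE, adjusted p = 0.859 by edgeR's quasi-likelihood test with Benjamini-Hochberg adjustment over all genes). The low livers were nearly alike, and the gap to the lowest control library was small beside the spread of the control livers. Mirg had 2.61, 3.30 and 2.83 CPM in low livers, against 3.87, 8.32 and 7.16 CPM in control livers, a log2 difference of -1.15 ± 0.48 (edgeR adjusted p = 0.813). Pvt1 had 0.468, 0.279 and 0.640 CPM in low livers, against 0.730, 1.74 and 0.691 CPM in control livers, a log2 difference of -1.17 ± 0.49 (edgeR adjusted p = 0.813). Control replicate 2 supplied the highest Mirg and Pvt1 values, and low replicate 3 nearly reached the lowest control level of Pvt1. Set against library totals the groups overlapped for all 3 genes, and low replicate 3 had 138 CPM of Malat1, against 95.9 to 113 CPM in control livers. Set against the counts left after removing mitochondrial genes and their copies, Malat1 overlapped too, with 454 CPM in low replicate 1, against 452 CPM in control replicate 1. For 13.8% of all tested genes the low and control ranges did not overlap on the TMM scale, and for 5.99% the unadjusted p was under 0.05, beside 3 and 2 (Mirg and Pvt1) of the 9 genes. Some lists of immune markers had lower values too, though no marker passed. Of the tested markers, 7 of 7 neutrophil, 10 of 10 Kupffer cell, 9 of 9 B and plasma cell and 5 of 10 T and NK cell markers had a negative difference between low and control livers. The summed neutrophil level was 6.31 to 7.71 CPM in low livers, against 10.5 to 39.7 CPM in control livers, that of Kupffer cell markers 61.2 to 78.6 CPM against 79.8 to 196 CPM, and that of B and plasma cell markers 13.4 to 27.3 CPM against 29.9 to 65.3 CPM, and that of T and NK cell markers 2.46 to 4.33 CPM against 1.94 to 6.06 CPM. The low group was not alone in this. The summed neutrophil level was also below that of all control livers in medium livers (4.65 to 9.39 CPM) and high livers (6.32 to 7.32 CPM), and so were the Kupffer cell markers in medium livers (64.8 to 74.6 CPM) and the B and plasma cell markers in medium livers (22.4 to 27.8 CPM). Their part in the lower values of Malat1, Mirg and Pvt1 was not tested.

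Across all doses, 0 of the 9 genes were called different from control by edgeR at an adjusted p under 0.05, as were 0 of 16839 genes (0.0%) at each dose and in the slope on dose. In the medium and high groups the ranges of all 9 genes overlapped those of control, where 14.0% and 13.0% of all genes did not overlap. Unadjusted p was under 0.05 for 0 of the 9 genes at 50 mg/kg and 0 at 100 mg/kg, beside 940 (5.58%) and 2152 (12.8%) of all genes. DESeq2 called 32, 86 and 161 genes at the low, medium and high dose and 60 in the slope on dose, with 0 of the 9 among them each time (0.118%, 0.318%, 0.594% and 0.222% of the 27086 genes given to it). In bulk tissue, fewer cells of a type and less RNA per cell cannot be told apart.

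Other differences from control were as large in places but came with wide errors. Kcnq1ot1 had 0.88, 4.04 and 1.87 CPM in high livers, against 2.52, 4.97 and 5.48 CPM in control livers, a log2 difference of -0.95 ± 0.51 (edgeR adjusted p = 0.433). Neat1 had 51.7, 292 and 229 CPM in high livers, against 248, 230 and 480 CPM in control livers, a log2 difference of -0.74 ± 0.57 (edgeR adjusted p = 0.574). High replicate 1, the library with the smallest mitochondrial share, held the lowest value of both genes, and high replicate 2, the library with the largest share, lay inside the control range of both. Neat1 also had the highest value of any library in medium replicate 2, at 634 CPM, beside 300 and 312 CPM in the other medium livers.

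**Figure D1:**
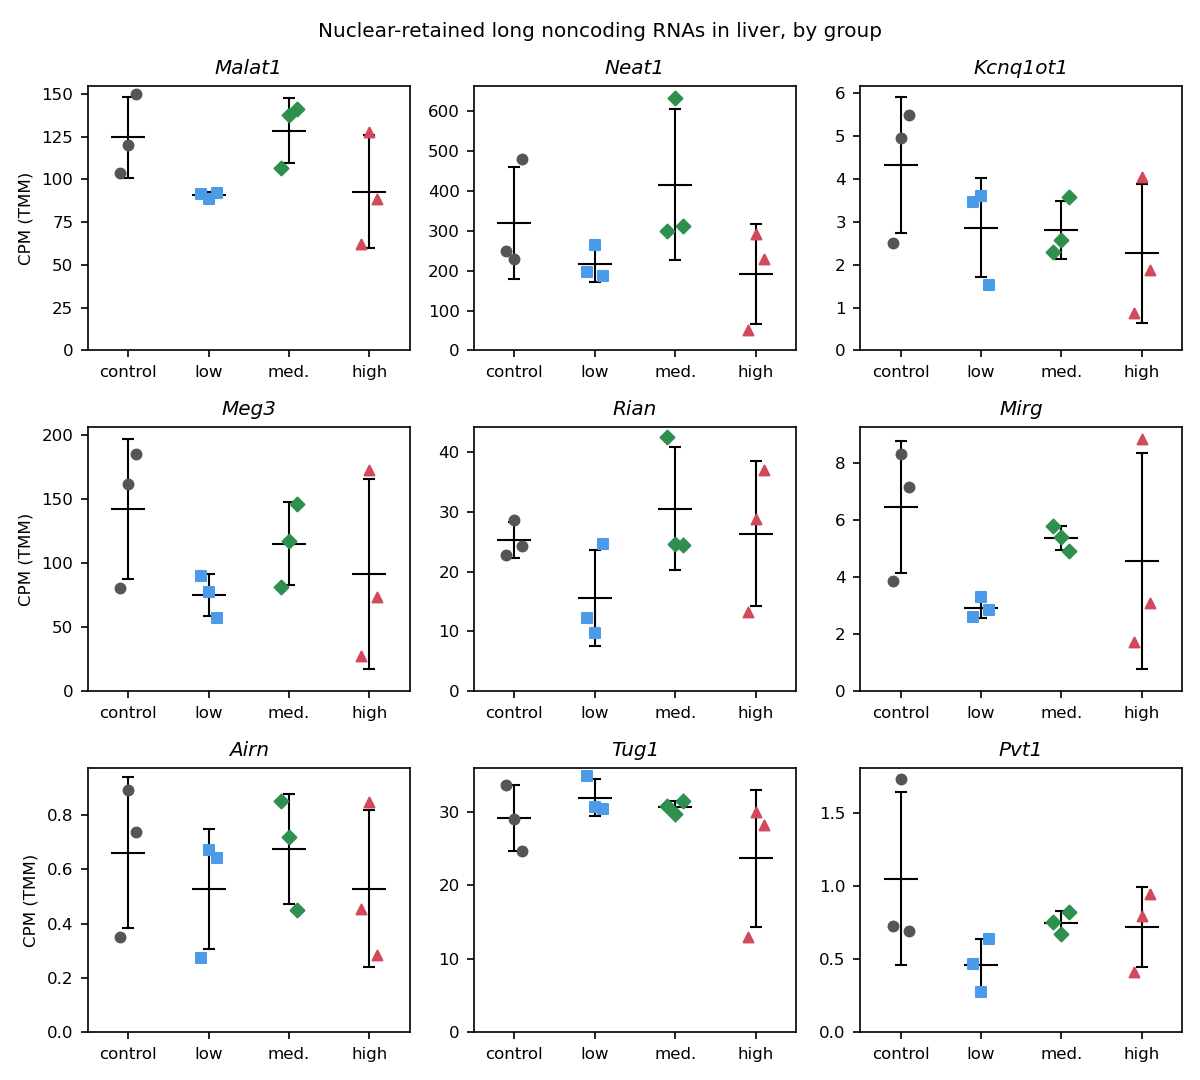
Level of each gene in CPM on the TMM scale (linear axis from 0) in control, low, medium (med.) and high livers, where each point is 1 mouse and the horizontal line with bars is the mean ± SD of 3. The low livers lie below all control livers for Malat1, Mirg and Pvt1, and the high group has the largest SD for every gene except Neat1 and Pvt1.

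Some of the 9 genes moved with the mitochondrial share. On the TMM scale, Kcnq1ot1, Meg3, Mirg and Malat1 were higher in libraries with a larger share of mitochondrial counts, and none of the 9 was lower. Across all genes 2528 (15.0%) were called higher and 3112 (18.5%) lower with a higher share in the same edgeR fit, 33.5% in all, so that 4 of 9 in the higher direction stand beside a background of 15.0%. Mitochondrial genes make up the share, and 36 of the 37 were called higher with it.

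Kcnq1ot1 had the steepest slope. It had 2.52, 4.97 and 5.48 CPM in control livers, 3.47, 3.60 and 1.53 in low, 2.29, 2.59 and 3.58 in medium and 0.88, 4.04 and 1.87 in high livers. The 3 lowest values were in high replicate 1, low replicate 3 and high replicate 3, which are the 3 libraries with the smallest share (30.3%, 43.0% and 42.1%). Its level rose by 0.64 ± 0.09 log2 units per 10 percentage points (SE, n = 12, edgeR adjusted p = 4.9e-05). Pearson's r of its log2 level with the share was 0.939 (permutation p = 1e-05, the smallest that 100000 permutations can give, adjusted p = 0.000821 over all genes) and Spearman's rho was 0.916 (permutation p = 9e-05, adjusted p = 0.00438). Without high replicates 1 and 3, the libraries farthest from the median share, r was 0.871. With each value taken relative to its group mean, r was 0.934 (exact p = 0.000772 over the 1296 permutations within groups, the smallest they can give, adjusted p = 0.0261).

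Meg3 followed. It had 81.1, 161.7 and 185.6 CPM in control livers, 90.0, 77.9 and 57.4 in low, 81.9, 117.6 and 146.7 in medium and 27.5, 172.9 and 74.1 in high livers. In the medium group its order was that of the shares (48.3%, 55.5% and 60.2%), while low replicates 1 and 2, with shares of 63.7% and 64.1%, had about the level of medium replicate 1. Its level rose by 0.60 ± 0.12 log2 units per 10 percentage points (edgeR adjusted p = 0.00127). Pearson's r was 0.827 (permutation p = 0.00117, adjusted p = 0.00751), Spearman's rho was 0.769 (permutation p = 0.0049, adjusted p = 0.0352), and r without the same 2 libraries was 0.634. Relative to group means, r was 0.875 (exact permutation p = 0.00154, adjusted p = 0.0261).

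Mirg, downstream of Meg3, rose by 0.46 ± 0.15 log2 units per 10 percentage points (edgeR adjusted p = 0.0237), although its correlation with the share did not pass (r = 0.628, permutation p = 0.0289, adjusted p = 0.0777, and rho = 0.573, permutation p = 0.0541, adjusted p = 0.154). Its r without the 2 farthest libraries was 0.278. Malat1 rose by 0.23 ± 0.08 (edgeR adjusted p = 0.0418), with r = 0.687 (permutation p = 0.0136, adjusted p = 0.0442), rho = 0.517 (permutation p = 0.0889, adjusted p = 0.211) and r = 0.281 without the 2 farthest libraries. Without both of these libraries, then, the correlations of Mirg and Malat1 were weak when not taken relative to group means. Relative to group means, r was 0.725 for Mirg (exact permutation p = 0.0856, adjusted p = 0.208). For Malat1 it was 0.772 (exact permutation p = 0.017, adjusted p = 0.0722). With these group means kept, r without both libraries was 0.593 for Mirg and 0.674 for Malat1. The extremes of Malat1 were 62.5 CPM in high replicate 1 and 150.2 CPM in control replicate 3, 2.40-fold apart on the TMM scale, whereas those of Neat1 were 12.3-fold apart. By Pearson's r, 3 of the 9 genes passed over all genes, where 14.6% of genes did so in this direction, and by Spearman's rho 2 of the 9 did, where 8.34% of genes did. In the lower direction 0 of the 9 passed by either, where 17.5% of genes did by Pearson's r and 9.68% by Spearman's rho.

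The other 5 genes gave no slope that passed. Neat1 had a slope of 0.48 ± 0.20 (edgeR adjusted p = 0.0777) and Tug1 one of 0.20 ± 0.08 (edgeR adjusted p = 0.0804). In both, high replicate 1 set most of the slope. Tug1 had 24.7 to 34.9 CPM in 11 libraries and 13.0 CPM in that library, and without it the slope was 0.01 for Tug1 and 0.16 for Neat1. Airn had a slope of 0.14 ± 0.17 and Pvt1 one of 0.12 ± 0.18, with at most 59 and 115 counts in a library. Rian had a slope of -0.10 ± 0.16 (edgeR adjusted p = 0.694). Without high replicate 1 its slope was -0.37 ± 0.16 (edgeR adjusted p = 0.133), and without the 2 farthest libraries its r was -0.473.

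**Figure D2:**
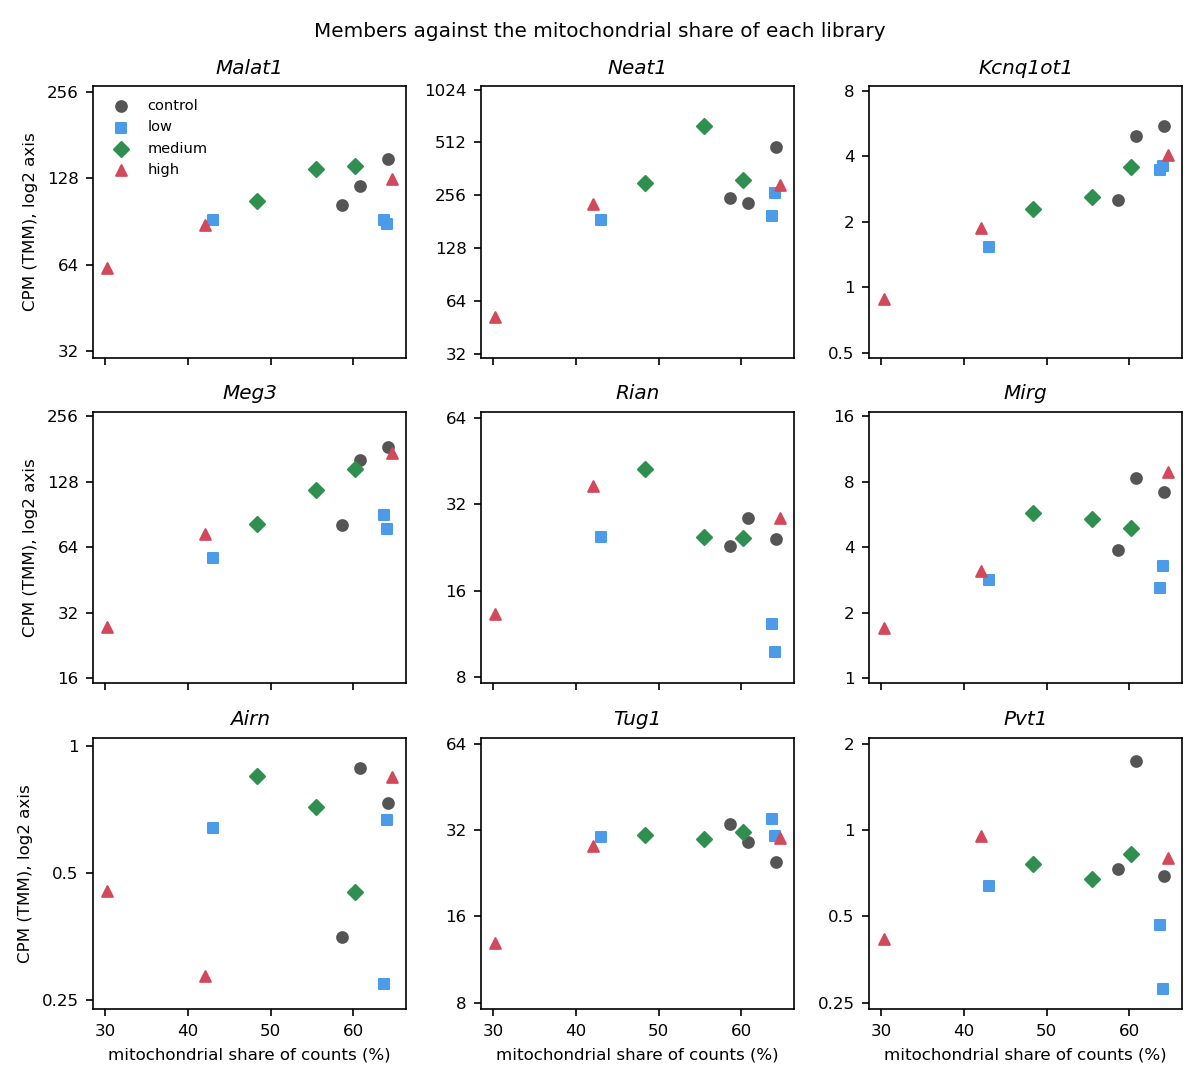
Level of each gene (CPM on the TMM scale, log2 axis) against the mitochondrial share of counts (percent) in the 12 libraries, with the group shown by colour and shape. Kcnq1ot1 and Meg3 climb along the share, Tug1 is level apart from high replicate 1 at 30.3%, and Rian follows no line.

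High replicate 1 mattered most among the libraries. Without it, 2 of the 9 genes were called, and 3380 of all genes instead of 5640 (8.31% higher and 11.3% lower). Kcnq1ot1 (0.61, edgeR adjusted p = 0.00199) and Meg3 (0.49, adjusted p = 0.0366) kept their calls, Mirg (0.36, adjusted p = 0.233) and Malat1 (0.16, adjusted p = 0.357) did not. The count was also 2 without high replicate 2 and without low replicate 3, where Kcnq1ot1 and Meg3 were again the genes called, where 13.1% and 12.6% of all genes were called higher and 16.6% and 16.4% lower. Mirg then had adjusted p = 0.0607 and 0.0553, and Malat1 0.0672 and 0.0726, in edgeR. Malat1 also lost its call without control replicate 2 or 3, medium replicate 1 or 3, or high replicate 3, at adjusted p from 0.0535 to 0.0881 in edgeR. Neat1 passed without low replicate 1 (adjusted p = 0.0464) or medium replicate 2 (0.0291), and Tug1 without control replicate 3 (0.0473). Kcnq1ot1 and Meg3 were called in all 12 fits that left out 1 library. With group terms added, 3 of the 9 were called higher, where 12.5% of all genes were (15.7% lower), Malat1 being lost at an adjusted p of 0.0701 in edgeR. With no filter on low counts 3 of the 9 were called higher, where 9.97% of 27086 genes were (14.6% lower), and by DESeq2 6 of the 9 were, where 2976 of 27086 genes were (11.8% lower).

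The direction also depended on the scale, and mitochondrial counts are part of the library total. Set against library totals, the median slope of all genes was -0.48 and 62.8% of genes were called lower. On that scale Kcnq1ot1 had a slope of 0.17, Meg3 0.12, Mirg -0.02, Neat1 -0.04 and Malat1 -0.24, none passing, while Tug1 (-0.31, edgeR adjusted p = 0.034) and Rian (-0.61, adjusted p = 0.0166) fell. As parts of the whole library, then, Kcnq1ot1 and Meg3 were not called changed, while the median gene was lower. Set against the counts left after removing mitochondrial genes and their 11 copies, the median slope of all genes was 0.19, and 6 of the 9 were called higher, where 32.9% of all genes were (8.98% lower). The added genes were Neat1 (0.66, edgeR adjusted p = 0.0241) and Tug1 (0.39, adjusted p = 0.00336), and Rian stayed at 0.09. By correlation on this scale 6 of the 9 passed by Pearson's r, where 31.8% of all genes did so higher and 8.77% lower, and 2 of the 9 by Spearman's rho, where 17.6% did so higher and 6.18% lower. Under all 3 scales Rian had the lowest slope of the 9 by sign, and on library totals its fall was the steepest.

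**Figure D3:**
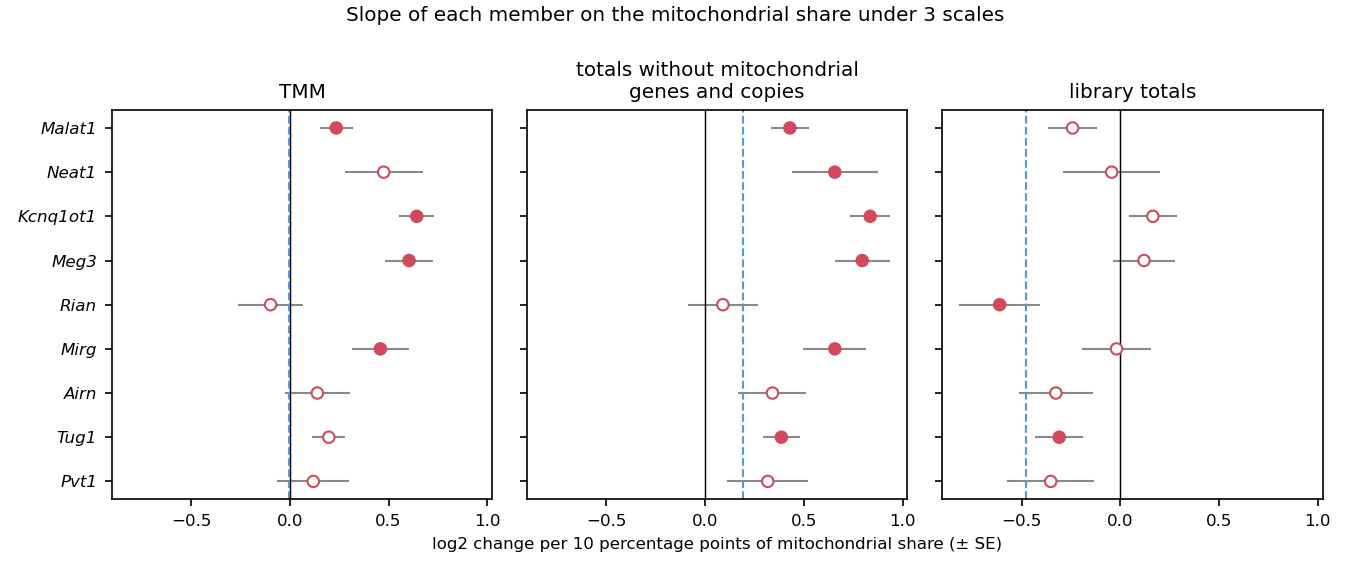
Slope of each gene on the mitochondrial share, in log2 units per 10 percentage points ± SE, on the TMM scale, on totals without mitochondrial genes and their copies, and on library totals. Filled points have an edgeR adjusted p under 0.05, the dashed line is the median of all 16839 genes, and the genes keep nearly the same order while the whole set shifts with the scale.

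Ratios between the counts of 2 genes in a library do not depend on any scale. Among other pairs given below, they separated Rian from the genes on either side of it. This comparison was chosen after the values had been seen. Meg3 counts were 1.93 to 7.99 times those of Rian. The 4 libraries with a share under 50% (high replicates 1 and 3, low replicate 3 and medium replicate 1) had ratios of 2.08, 2.00, 2.33 and 1.93, and the other 8 libraries had ratios from 3.55 to 7.99. Within the low group the ratio was 7.35 and 7.99 in replicates 1 and 2 and 2.33 in replicate 3, and within the high group it was 6.02 in replicate 2 and about 2 in the others. The log2 ratio rose by 0.65 per 10 percentage points, with r = 0.897 (permutation p = 0.00015, adjusted p = 0.0027 over the 36 pairs of genes) and rho = 0.888 (permutation p = 0.00025, adjusted p = 0.00225). Without the 2 farthest libraries r was 0.919, relative to group means it was 0.884 (exact permutation p = 0.00231), and over the 12 fits that left out 1 library it was 0.882 to 0.938.

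Rian fell in the same way against Mirg. The ratio of Rian over Mirg had r = -0.837 (permutation p = 0.00063, adjusted p = 0.00432) and rho = -0.902 (permutation p = 0.00015, adjusted p = 0.00225), with r = -0.886 without the 2 farthest libraries and -0.806 relative to group means (exact permutation p = 0.0532). Meg3 over Mirg, by contrast, ran from 14.2 to 34.4 with r = 0.537 (permutation p = 0.0749, adjusted p = 0.15) and rho = 0.35 (permutation p = 0.268, adjusted p = 0.402). In edgeR 33.5% of all genes were called with the share. Pairs drawn from all genes were not tested, so the counts of pairs given next have no background. Of the 36 pairs, 10 passed by Pearson's r, 9 by Spearman's rho and 8 by both. Malat1 over Kcnq1ot1 was among them (24.2 to 71.1, r = -0.864, permutation p = 0.00013, adjusted p = 0.0027, rho = -0.832, permutation p = 0.00148, adjusted p = 0.00747), so these transcripts did not move by an equal factor. Fewer pairs passed with values taken relative to group means. Rian was not alone in coming apart, and Kcnq1ot1 was in more of the pairs passing by Pearson's r. By Pearson's r, Malat1 over Meg3 (r = -0.853) and Meg3 over Pvt1 (r = 0.831) also passed, both at a permutation adjusted p of 0.00342. So did Kcnq1ot1 over Rian (r = 0.824), Pvt1 (r = 0.781), Tug1 (r = 0.744) and Airn (r = 0.718), and Neat1 over Rian (r = 0.766). Their permutation adjusted p ran from 0.00432 to 0.0305. Kcnq1ot1 over Airn and Neat1 over Rian did not pass by Spearman's rho. Rian did not pass against Malat1, Airn, Tug1 or Pvt1 (permutation adjusted p from 0.124 to 0.473). Neat1 over Malat1 was 0.826 in high replicate 1, the only library with fewer Neat1 than Malat1 counts, and 1.91 to 4.61 in the other 11.

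**Figure D4:**
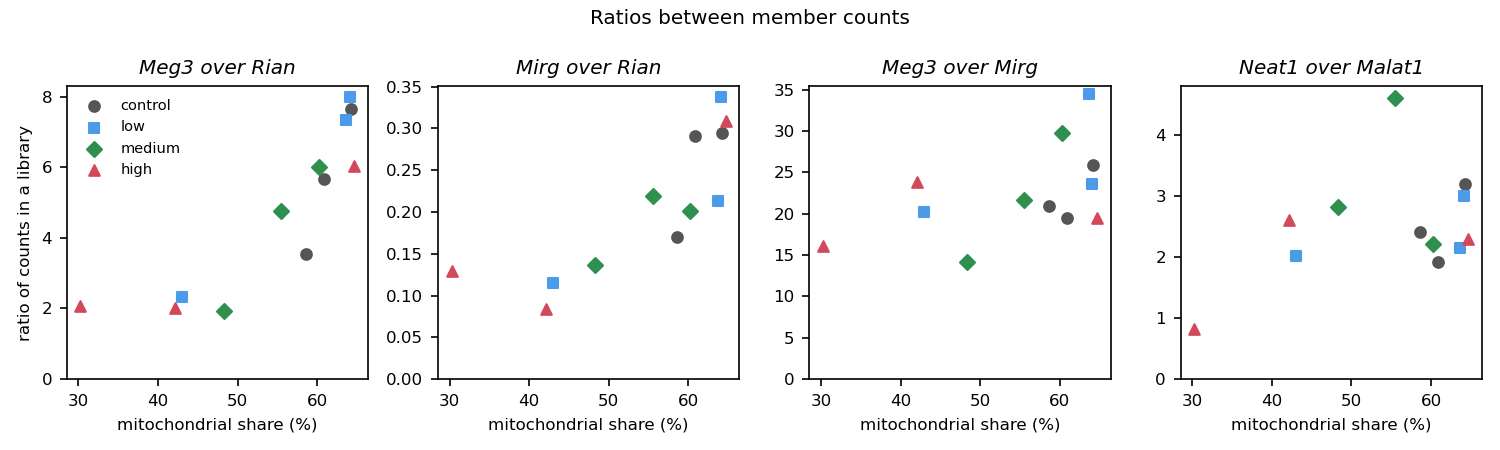
Ratio of counts of 2 genes within a library (linear axis from 0) against the mitochondrial share (percent), by group, for Meg3 over Rian, Mirg over Rian, Meg3 over Mirg and Neat1 over Malat1. The first pair of ratios is low at small shares and high at large ones, from 1.93 to 7.99 for Meg3 over Rian, and the second pair shows no such line.

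Rian itself had 22.8, 28.5 and 24.3 CPM in control livers, 12.2, 9.75 and 24.6 in low, 42.4, 24.6 and 24.5 in medium and 13.2, 28.7 and 37.0 in high livers. Low replicates 1 and 2 were below all control livers, and low replicate 3 was inside their range. The correlation of Rian with Meg3 over the 12 libraries was 0.37 and that with Kcnq1ot1 0.07, while Meg3 had 0.93 with Malat1, 0.92 with Kcnq1ot1 and 0.89 with Mirg. Neat1 had 0.87 with Malat1. These are descriptions on the TMM scale, where the points share the libraries and their depth.

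Marker genes of the liver's cell types moved with the share as well, where 15.0% of all genes were called higher and 18.5% lower. Of 12 hepatocyte markers, 10 fell with a higher share, among them Ttr (-1.30 per 10 points) and Alb (-1.14), which encode plasma proteins made by hepatocytes. Of 11 stellate cell and fibroblast markers, 9 fell, among them Col1a1 (-0.98) and Col1a2 (-0.84), the chains of type I collagen. Each list had 0 genes without counts in all libraries. The summed hepatocyte level was 6625 to 38399 CPM in low, 9751 to 29988 in medium and 7243 to 52749 in high livers, against 7432 to 14426 CPM in control livers. The summed stellate level was 41.0 to 99.5 CPM in low, 43.5 to 86.3 in medium and 55.8 to 266 in high livers, against 59.4 to 75.2 CPM in control livers. Of the other lists, 5 of 10 endothelial, 3 of 6 cholangiocyte and 1 of 10 Kupffer cell markers fell, 4 of 9 B and plasma cell markers rose and 2 fell, and 0 of 7 neutrophil and 0 of 10 T and NK cell markers passed. Without high replicate 1, 8 hepatocyte and 7 stellate markers fell, where 8.31% of all genes rose and 11.3% fell. In that fit 0 B and plasma cell markers rose and 0 fell. The same held for B and plasma cell markers with group terms added, where 12.5% of all genes rose and 15.7% fell. The part of these cell types in the slopes of the 9 genes was not tested.

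Genes for proteins that share a nuclear body with the 2 most abundant transcripts were read from lists of known components. No protein was measured, and a protein or decay factor said to rise or fall did so in its mRNA. In the slope on the share, 15.0% of all genes were called higher and 18.5% lower. Of 20 nuclear speckle proteins, 6 rose with the share and 0 fell, with a median slope of 0.18 where that of all genes was -0.0023. They included Acin1 (0.38) and Ddx39b (0.34), which act in splicing and export of mRNA, Rbm25 (0.34) and the splicing factor Srsf2 (0.21). Without high replicate 1 the count was 2 higher and 2 lower, with a median of -0.01. Of 20 paraspeckle proteins 5 rose and 0 fell, with a median of 0.02. Among them were Taf15 (0.56), Ss18l1 (0.53), Hnrnpr (0.38) and Dazap1 (0.33), whereas the core proteins that bind Neat1, Sfpq, Nono and Pspc1, had slopes of -0.0038, -0.06 and -0.03. Of 15 nuclear RNA decay factors 4 rose and 2 fell, including Srrt (0.37), Pabpn1 (0.30) and Zc3h18 (0.29) upward and the exosome cofactor C1d (-0.46) downward. Without high replicate 1, 5 paraspeckle proteins rose and 2 fell, with a median of -0.017. In the same fit 3 decay factors rose and 3 fell, with a median of 0.0029, where 8.31% of all genes rose and 11.3% fell. On the library-total scale 0 genes of these lists rose. There 12 of 20 speckle proteins, 13 of 20 paraspeckle proteins and 11 of 15 decay factors fell, where 62.8% of all genes did.

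Neighbouring genes were read in the same fit. Of 22 listed, 15 were tested, 2 rose and 5 fell, with a median of -0.15, beside the 15.0% of all genes called higher and 18.5% called lower. Near Kcnq1ot1, the tetraspanin gene Cd81 (-0.77), the transporter gene Slc22a18 (-0.47) and the cell cycle inhibitor gene Cdkn1c (-0.51) fell with the share, and Kcnq1 did not pass (-0.16 ± 0.26). Near Airn, the organic cation transporter gene Slc22a3 fell (-0.86), and Igf2r did not pass (-0.12 ± 0.06). Beside Tug1, Morc2a rose (0.38). Cdkn1c is named after its value was seen, Kcnq1 and Igf2r as the genes that Kcnq1ot1 and Airn overlap, and the others by their p-values. The calls of Cd81, Slc22a18, Cdkn1c and Slc22a3 in this direction held on all 3 scales, with 15 to 208 counts of Cdkn1c in a library.

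Other long noncoding RNAs served as a comparison. Of 25 listed, 22 were tested, 8 rose and 3 fell with the share, with a median slope of 0.20. Mir99ahg (0.52), Snhg12 (0.42) and Epb41l4aos (0.29) rose and H19, an imprinted fetal liver transcript, fell (-1.55). Over all 1318 long noncoding RNAs tested the median was 0.16, with 16.5% higher and 3.34% lower, and over 13692 protein-coding genes the median was -0.02, with 15.1% higher and 20.2% lower. The medians of the 9 genes, of the other listed ones and of all long noncoding RNAs therefore lay on the same side. Without high replicate 1 the other listed ones had a median of 0.07, with 5 higher and 3 lower. In the dose comparisons 0 genes of any of these lists were called by edgeR.

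**Figure D5:**
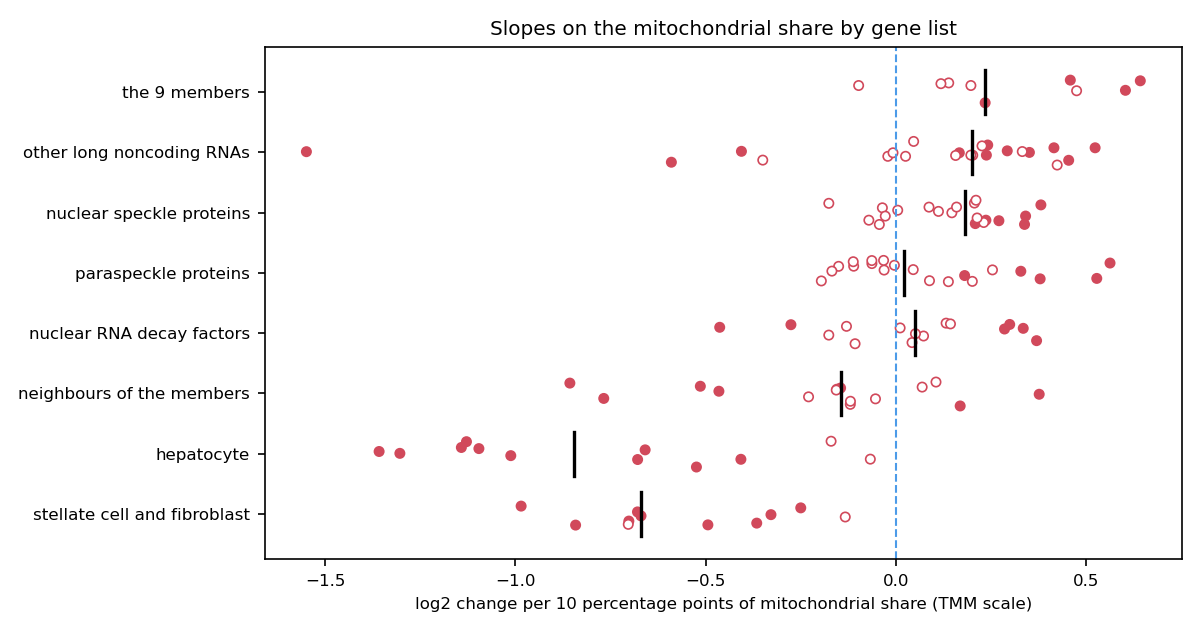
Slopes on the mitochondrial share (log2 units per 10 percentage points, TMM scale) of the 9 genes and of the listed genes, where each point is a gene, filled if its edgeR adjusted p is under 0.05, the black bar is the median of the row and the dashed line is 0. Points are spread vertically within a row for legibility, and the hepatocyte and stellate rows lie on the lower side while the speckle and noncoding rows lie mostly on the higher side.

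Genes of most like pattern were sought by Pearson's r of log2 CPM over the 12 libraries. The 9099 eligible genes had a mean log2 CPM of 1 or more. Predicted loci (Gm number or Rik), immunoglobulin and T cell receptor segments and IDs without a symbol were left out. For Kcnq1ot1 they were Rnf31 (0.987), Mettl6 and Ap4m1, for Meg3 Trp53bp1 (0.978), Josd2 and Dhx57, and for Mirg Cd320 (0.933), C2cd2l and Polrmt. For Malat1 they were Ccdc157 (0.985), Clcn7 and Frs3, and for Tug1 Prpf4b (0.989), Vps37a and Nfat5. For Rian the nearest was G2e3 (0.943), followed by Sh2d3c (0.864) and Impact (0.863). For the sparsely counted Airn and Pvt1 the nearest, Engase and Trpm2, reached 0.846 and 0.884. As the highest of many values over shared libraries, these are descriptions and were not tested.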

How the data were processed

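Liver RNA-seq counts of 12 mice were analysed, 3 in each of 4 groups, with groups, doses and replicate numbers from the labels. The values are raw counts as deposited by the authors, whole and without normalization, in 1 table by Ensembl gene ID. The submitters' processing notes name build mm39 and, among tools, StringTie 2.2.1, STAR 2.7.10b and fastp 0.23.4. The counting step and its use of strand and of multiply mapped reads are not given in the sources used here. Each of the 12 columns has its label, with 0 left over. GENCODE M21 gave a symbol to 52073 (91.5%) of the IDs and the gene lengths, and as it is for another build, none of its gene coordinates are printed.

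The mitochondrial share is the percent of a library's counts on genes whose symbol begins mt-. Nuclear genes whose transcript matched a mitochondrial one at 95% identity or more over 80% of its length (BLAST+ 2.17.0) were counted as copies. Tests used edgeR 4.0.16 in R 4.3.3 (filterByExpr, TMM, robust quasi-likelihood fit, all 12 libraries in 1 fit), with Benjamini-Hochberg adjustment over all 16839 genes and a threshold of 0.05. Designs were the group, the dose as a number, or the share per 10 percentage points. Correlations used log2 CPM with a prior count of 2 and 100000 two-sided permutations of the libraries. Alternatives were DESeq2 1.42.0, other scales, no filter, a prior count of 0.5, added terms and leaving out each library. The edgeR fits were tested on simulated counts first.

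The genes, lists and tests were chosen with earlier results of these data known, and the ratios of counts after the values were seen. Named besides the 9 genes are, for each, the 3 most like genes (those of Neat1 are not reported here) and, for each list, up to 4 genes with the smallest p. Named outside this rule, for their known relation to a transcript or after their values were seen, are Kcnq1, Igf2r, Rtl1, Cdkn1c, Sfpq, Nono and Pspc1. The labels call the samples biological replicates. Intervals and detection floors cover counting error only.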

Additional observations from a re-analysis of the deposited data

How the results depend on the processing

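Kcnq1ot1 and Meg3 kept a positive slope on the mitochondrial share under all settings run, and their calls under all except library totals. Where edgeR called 0 genes, DESeq2 called 32 at the low, 86 at the medium and 161 at the high dose and 60 in the slope on dose, and fits on the pair of groups alone called 1 gene at the low and 8 at the medium dose. For the slope on the share, library totals gave 10659 genes and 2 of the 9 (Tug1 and Rian, both lower), DESeq2 6 and no filter 3 of the 9. Leaving out 1 library gave 3380 to 5774 genes and 2 to 5 of the 9 there, and 0 to 2 genes at the low dose (2 without low replicate 3). For the correlation, totals without mitochondrial genes and copies gave 6 of the 9 (where 5347 of 16839 genes were called higher) and 2 by Spearman's rho, and values relative to group means gave 3119 genes (5402 otherwise) and, for the ratios, 5 of the 36 pairs. The cause of these shifts was not tested.

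Signs turned in places. On library totals, the slopes on the share were -0.24 for Malat1, -0.044 for Neat1, -0.019 for Mirg, -0.33 for Airn, -0.31 for Tug1 and -0.35 for Pvt1. On the same scale the high difference was 0.14 for Malat1, 0.12 for Airn, 0.26 for Tug1 and 0.040 for Pvt1, and the medium difference 0.13 for Meg3 and 0.20 for Mirg. On totals without mitochondrial genes and copies, Rian had a slope of 0.090, r = 0.202 and a high difference of -0.15, and the medium difference was -0.039 for Malat1, -0.13 for Airn and -0.018 for Tug1. With the share as a covariate the high difference of Rian was -0.089, and the medium ones of Meg3 and Mirg 0.078 and 0.060. The medium difference of Airn was -0.000214 by DESeq2 and -0.00491 with its size factors. Leaving out 1 library turned 9 values. The ranges were -0.27 to 0.38 (Rian) and -0.82 to 0.015 (Pvt1) at the high dose, and -0.054 to 0.20 for the slope of Pvt1 on the share. At the medium dose they were -0.072 to 0.20 (Malat1), -0.072 to 0.80 (Neat1), -0.037 to 0.41 (Rian), -0.27 to 0.31 (Airn), -0.031 to 0.19 (Tug1) and -0.72 to 0.085 (Pvt1). None of these differences at a dose passed the test.

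Groups share replicate numbers, but same-numbered libraries of a dose and control correlated at only -0.166 to 0.145 in their deviations from the group means, so the numbers were not taken as pairs. A replicate block left 2 of the 9 called (Kcnq1ot1 and Meg3) and 4179 genes in the slope on the share (10.8% of genes higher and 14.1% lower), turned the slope of Airn to -0.011 and the high difference of Rian to -0.000878, and left 0 genes called at each dose. Depth limits Airn and Pvt1 most.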
